A study of Mus musculus with 18 samples.

Results

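The genes described here are 10 genes best known from cartilage and from the surface of joints: Acan, Hapln1, Comp, Matn1, Matn3, Matn4, Chad, Prg4, Sox5 and Sox9. They were chosen by gene symbol, with earlier results of these data known, and all 10 were found among the 46583 genes of the deposited table. RNA had been taken from the cochlea of 4-week-old mice and divided by position along the frequency axis into base, middle and apex. The mice were controls, whose genotype the labels give as WT, or carried a conditional knock-out of Fst (here cKO), and the labels call both untreated. Fst encodes follistatin, which is secreted and captures activins. For each region and genotype 1 RNA pool was split into 3 technical libraries, so there were 6 groups, 18 libraries and n = 1 pool per group. The Cre driver, the number of animals in a pool and their sex are not given in the sources used here.

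Cartilage is a hydrated matrix in which the proteoglycan aggrecan, the product of Acan, is held on hyaluronan by link protein, the product of Hapln1, within a mesh of type II collagen. Smaller proteins tie these parts together: cartilage oligomeric matrix protein (Comp), the matrilins (Matn1, Matn3, Matn4) and chondroadherin (Chad). Lubricin, encoded by Prg4, coats the surface of joints, and the transcription factors SOX9 and SOX5 switch on the matrix genes in chondrocytes. In the ear, type II collagen is also part of the tectorial membrane, the cochlea lies within the bony otic capsule, and Sox9 is active in the cells of the otic epithelium. Aggrecan and link proteins also build the perineuronal nets around neurons.

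The libraries held between 24446760 and 33732726 counts, so that 3 counts, the upper limit when none is seen, correspond to 0.0889 to 0.123 CPM (a library's counts scaled to a common total). Fst itself was at 23.4 to 25.1 CPM in the control apex and 9.55 to 10.3 CPM in the cKO apex. It was at 5.73 to 6.82 against 2.71 to 3.38 CPM in the middle and at 2.04 to 2.41 against 1.73 to 1.97 CPM in the base. Among markers of the labelled tissue, 4 genes of spiral ligament fibrocytes, cells of the outer wall of the cochlea, summed to between 21283 and 31855 CPM in every library. A list of 8 chondrocyte genes, 3 of them members, summed to 2296 to 2302 CPM in control base, 1452 to 1465 in control middle and 1202 to 1210 in control apex, and to 2087 to 2099, 1561 to 1579 and 1260 to 1271 CPM along the cKO, with Matn3 at 0 in 3 groups. Cnmd, a large part of that sum, was highest in the apex, as no other gene of the list was. It was at 451.4, 385.3 and 534.1 CPM along the control and 415.3, 352.8 and 503.8 along the cKO. Xist, which is transcribed from the inactive X chromosome of female cells, was at 293 to 373 CPM in control libraries and at 57.7 to 87.8 CPM in cKO libraries, so the sex of the animals in the pools cannot be told apart from the genotype. In these tissue samples fewer cells of a type and less RNA per cell cannot be told apart either.

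Acan and Chad were graded from base to apex in both genotypes, and Hapln1, the partner of Acan, ran the other way. Prg4 had the widest range of all the members and was the only one whose level passed the threshold between genotypes, higher in the cKO middle and lower in the cKO apex. Matn1 and Comp were low and highest in the control base, Matn4, Sox5 and Sox9 differed by less than 2-fold between any pair of groups, and Matn3 was at or below the level that 3 counts allow. A difference was called when edgeR's quasi-likelihood test gave an adjusted p under 0.05 and the log2 change was at least 1 in size. The fold threshold was needed because technical libraries of 1 pool differ so little that small differences between pools pass the p alone. The p-values of these fits carry the spread between libraries of a pool, not that between animals.

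Compared per length, in FPKM (the deposited level scaled for transcript length and library size), Chad was the most abundant member in the control base at 94.3 ± 1.43 (SD, n = 3 libraries). Acan followed at 52.1 ± 0.404 FPKM and Sox9 at 33.5 ± 0.998 FPKM. Sox5 (8.17), Hapln1 (5.22), Prg4 (4.82) and Matn4 (4.42 FPKM) made up a middle tier there. Matn1 at 1.54 FPKM and Comp at 0.963 FPKM were lower. Among 21414 genes with at least 18 counts over the libraries, the FPKM of Chad stood above 96.2% of the genes in the control base and above 74.8% in the control apex. For Acan these shares were 91.7% and 69.0%, and for Sox9 86.1% and 79.4%. In the control apex Sox9, at 22.8 FPKM, had the highest mean of the members, ahead of Chad at 17.98 and Acan at 13.5 FPKM.

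**Figure D1:**
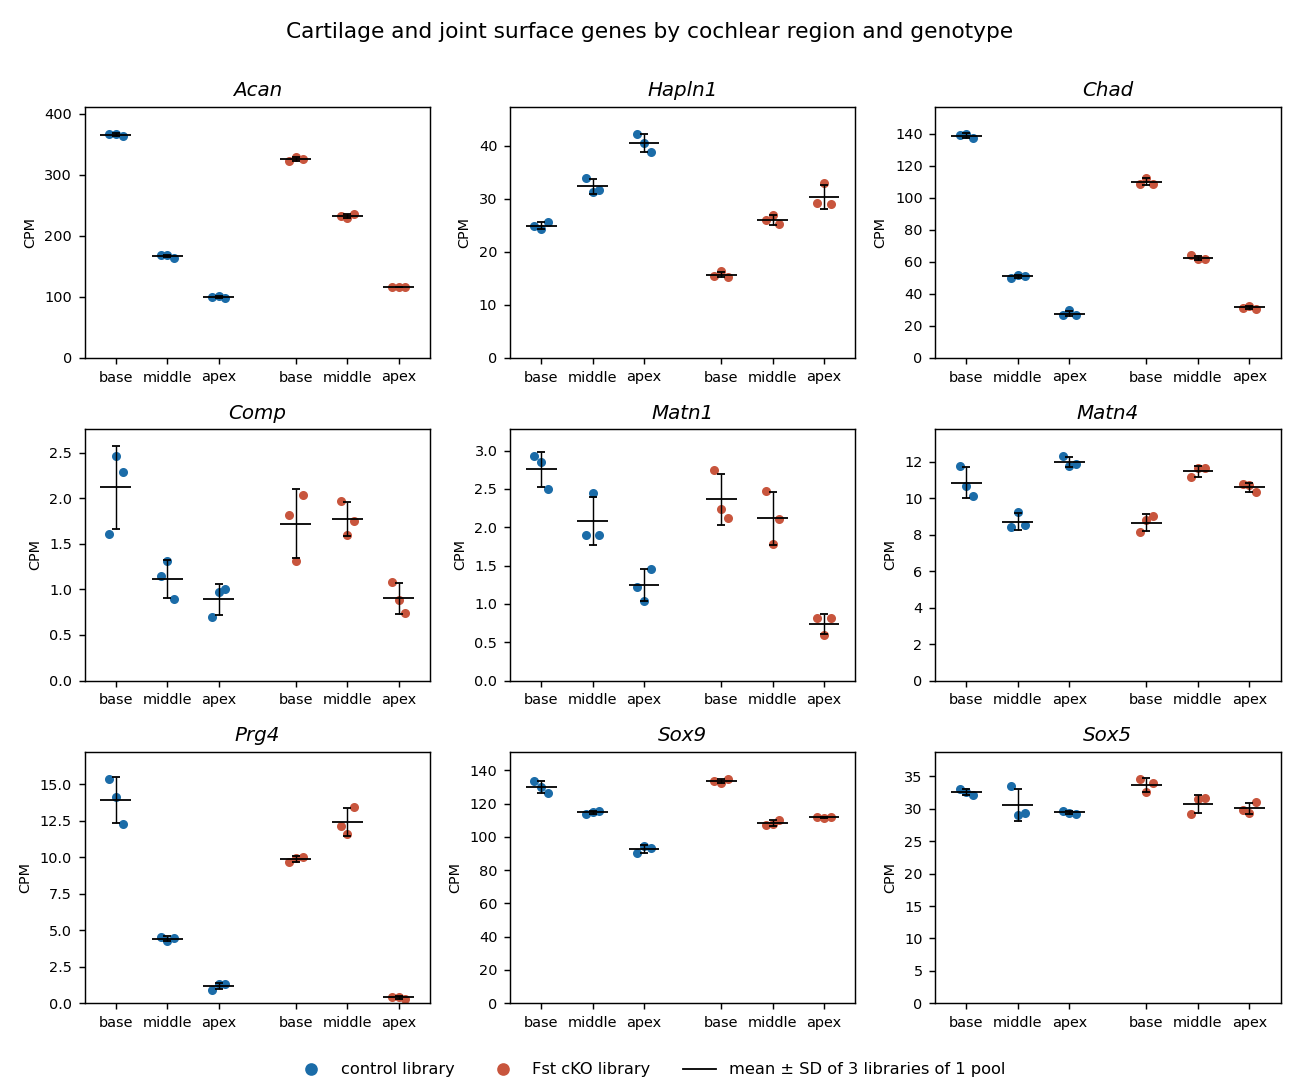
CPM of the 9 members that passed the filter on low counts, 1 panel per gene with its own linear axis from 0, by region, with control libraries in blue and Fst cKO libraries in red; each point is 1 library and the black marks are the mean ± SD of the 3 libraries of a pool. Acan and Chad step down from base to apex in both genotypes, Hapln1 steps up, and Prg4 is near 0 in both apex groups.

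Aggrecan is the large proteoglycan that gives cartilage its stiffness under load. Acan (ENSMUSG00000030607, chromosome 7, 79053483 to 79115099, plus strand, GENCODE positions on GRCm38/mm10, as for all genes below) was at 367.2, 367.0 and 362.9 CPM in the 3 control base libraries, at 167.9, 168.0 and 164.2 in control middle and at 99.9, 100.6 and 98.2 in control apex. The cKO libraries held 323.0, 329.0 and 325.9 CPM in the base, 231.8, 229.7 and 235.1 in the middle and 115.6, 116.2 and 115.6 in the apex. No group overlapped another: the order from high to low was control base, cKO base, cKO middle, control middle, cKO apex and control apex. Acan fell in the control apex against the base, with a log2 change of -1.95 ± 0.019 (SE of the fit, n = 3 libraries per group; edgeR, adjusted p = 8.55e-41), and in the control middle against the base, with a log2 change of -1.16 ± 0.016. In the cKO it fell in the apex against the base and in the apex against the middle, with log2 changes of -1.53 ± 0.020 and -1.01 ± 0.020. The last value lies just past the threshold, and the cKO middle against the base, at -0.52 ± 0.015, and the control apex against the middle, at -0.79 ± 0.023, did not reach it.

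Link protein locks aggrecan onto hyaluronan, and within each genotype its gene ran from low in the base to high in the apex. Hapln1 (ENSMUSG00000021613, chromosome 13, 89539796 to 89611652, plus strand) was at 24.9, 24.3 and 25.6 CPM in control base, 33.9, 31.3 and 31.7 in control middle and 42.2, 40.5 and 38.8 in control apex. In cKO mice its values were 15.5, 16.3 and 15.3 CPM in the base, 26.0, 27.0 and 25.1 in the middle and 29.1, 32.9 and 29.0 in the apex. The control apex libraries were above, and the cKO base libraries below, all the others. Control middle overlapped cKO apex, and cKO middle overlapped control base. Its log2 change in the apex against the base was 0.64 ± 0.043 in the control and 0.91 ± 0.053 in the cKO, both short of the threshold of 1. The FPKM of Acan was 9.97 ± 0.319 times that of Hapln1 in control base, 3.51 ± 0.141 times in control middle and 1.67 ± 0.0573 times in control apex. In the cKO the same ratio was 14.1 ± 0.367 in the base, 6.07 ± 0.282 in the middle and 2.60 ± 0.175 in the apex. It was higher in the cKO than in the control in each of the 3 regions, with no overlap between libraries. These are technical libraries of 1 pool per group, so their separation says nothing of the spread between animals.

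Chondroadherin is a leucine-rich repeat protein of cartilage that binds collagen and cell surfaces. Chad (ENSMUSG00000039084, chromosome 11, 94565047 to 94569127, plus strand) was at 139.2, 139.9 and 137.0 CPM in control base, 49.7, 51.8 and 50.9 in control middle and 26.7, 29.7 and 26.6 in control apex. The corresponding cKO values were 108.6, 112.5 and 108.5 CPM in the base, 64.0, 61.9 and 61.6 in the middle and 31.2, 32.5 and 30.7 in the apex. The 6 groups stood in the same order as for Acan, again with no overlap between neighbours, and the highest mean was 5.01 times the lowest, against 3.67 times for Acan. Chad fell in the apex against the base, with log2 changes of -2.39 ± 0.030 in the control and -1.84 ± 0.032 in the cKO. It also fell in the control middle against the base, with -1.48 ± 0.026. Its log2 change in the cKO apex against the middle was -0.998 ± 0.034, just inside the threshold. Chad overlaps Acsf2, a gene of fatty acid metabolism on the other strand, and the kit does not mark strand. Acsf2 was at 51.9 CPM in control base and 34.0 in control apex, and at 50.2 and 34.4 in the cKO, a narrower range than that of Chad.

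The sequences just before the start sites of Acan, Chad and Matn1 are shown because these 3 genes were lower in the apex than in the base in both genotypes and have an entry in RefSeq's promoter table (GRCm38.p6). Each is the 250 bases before RefSeq's start of the gene on the plus strand, at chr7:79052976-79053225 for Acan, chr11:94564797-94565046 for Chad and chr4:130944135-130944384 for Matn1. Capitals mark the letters TATAAA, the usual core of a TATA box.
Acan: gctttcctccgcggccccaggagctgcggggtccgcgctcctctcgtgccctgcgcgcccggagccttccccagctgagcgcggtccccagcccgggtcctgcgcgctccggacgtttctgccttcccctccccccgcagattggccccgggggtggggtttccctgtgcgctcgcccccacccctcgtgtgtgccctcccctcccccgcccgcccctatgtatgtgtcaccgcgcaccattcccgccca
Chad: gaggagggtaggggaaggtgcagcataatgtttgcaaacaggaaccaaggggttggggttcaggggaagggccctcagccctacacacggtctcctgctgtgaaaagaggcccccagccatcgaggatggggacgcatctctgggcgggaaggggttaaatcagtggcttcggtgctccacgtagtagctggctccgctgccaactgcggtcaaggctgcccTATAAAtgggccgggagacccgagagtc
Matn1: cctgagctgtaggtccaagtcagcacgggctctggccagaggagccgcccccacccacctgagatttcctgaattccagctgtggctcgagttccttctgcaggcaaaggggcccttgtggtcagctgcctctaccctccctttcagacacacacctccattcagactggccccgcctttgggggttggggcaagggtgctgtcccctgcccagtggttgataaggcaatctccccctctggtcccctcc
The Acan window is 74.4% G and C with 26 CpG pairs, against medians of 52.4% and 6 over the 32851 windows of the table. The Chad window is 60.4% G and C with 10 CpG pairs, and the Matn1 window 62% with 4. TATAAA stands 28 bases before the start of Chad, and 12.4% of all windows hold these letters on either strand. The letters ACAAAG and ACAATG, core forms of the element that SOX proteins bind, were searched on both strands. None of the 3 windows holds either, as is so for most windows of the table. Of all windows 25.2% hold at least 1 (16.5% ACAAAG, 10.7% ACAATG). Among the other members, the window of Sox5 holds ACAATG. A window of this length says nothing of more distant elements. Of the 10 members 7 had a window.

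Comp (ENSMUSG00000031849, chromosome 8, 70373558 to 70382066, plus strand), the gene of a pentameric protein of cartilage and tendon, was low. It was at 1.61, 2.46 and 2.29 CPM in control base, 1.14, 1.31 and 0.897 in control middle and 0.699, 0.974 and 1.01 in control apex, from 20 to 76 counts a library. In the cKO its libraries held 1.82, 1.31 and 2.04 CPM in the base, 1.97, 1.60 and 1.75 in the middle and 1.08, 0.889 and 0.740 in the apex. Each group overlapped its neighbour in the order of means. Comp fell in the control apex against the base, with a log2 change of -1.30 ± 0.22 (edgeR, adjusted p = 4.81e-06). On log2(FPKM + 1) that change was -0.50 and was not called by limma. In 3 other regional contrasts it came near the threshold, with log2 changes of -0.94 ± 0.21 for control middle against base, -0.97 ± 0.24 for cKO apex against base and -0.98 ± 0.22 for cKO apex against middle. Each of these passed 1 in size when single libraries were left out, reaching -1.12 without control base replicate 1, -1.13 without cKO base replicate 2 and -1.13 without cKO apex replicate 1.

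The matrilins are adaptor proteins that link collagen fibrils to proteoglycans, and they differed from each other. Matn1 (ENSMUSG00000040533, chromosome 4, 130944385 to 130955475, plus strand), a classic gene of cartilage away from the joint surface, was at 2.92, 2.85 and 2.495 CPM in control base, 1.90, 2.45 and 1.90 in control middle and 1.22, 1.04 and 1.46 in control apex. Its cKO libraries held 2.75, 2.23 and 2.12 CPM in the base, 2.47, 1.78 and 2.10 in the middle and 0.818, 0.592 and 0.814 in the apex. Neighbours among the base and middle groups overlapped, and both apex groups stood below them and apart from each other. Matn1 fell in the apex against the base, with log2 changes of -1.22 ± 0.18 in the control and -1.70 ± 0.21 in the cKO, and in the cKO apex against the middle, with -1.52 ± 0.21. On log2(FPKM + 1), which understates changes of low genes, these were -0.61, -0.73 and -0.62, and limma called none of them at the fold threshold. Matn3 (ENSMUSG00000020583, chromosome 12, 8947929 to 8972028, plus strand), a gene of growing cartilage, had 1 count over the 3 control base libraries, 2 over cKO base and 3 over cKO middle, and 0 in control middle, control apex and cKO apex. It did not pass the filter on low counts, and no fold is given. Matn4 (ENSMUSG00000016995, chromosome 2, 164389393 to 164405160, minus strand), the matrilin with a broad distribution, was at 10.1 to 11.8 CPM in control base, 8.41 to 9.23 in control middle and 11.8 to 12.3 in control apex. The cKO ranges were 8.12 to 9.01, 11.1 to 11.7 and 10.3 to 10.8 CPM. The highest mean was 1.39 times the lowest, and no contrast of Matn4 was called. Matn4 overlaps Rbpjl on the other strand, a gene at 0.848 to 1.7995 CPM by group mean.

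Lubricin is a mucin-like glycoprotein that lets cartilage surfaces slide. Prg4 (ENSMUSG00000006014, chromosome 1, 150449412 to 150466165, minus strand) was at 15.4, 14.1 and 12.3 CPM in control base, 4.54, 4.24 and 4.4995 in control middle and 0.911, 1.29 and 1.29 in control apex. The cKO pools gave 9.67, 9.94 and 10.1 CPM in the base, 12.1, 11.6 and 13.4 in the middle and 0.448, 0.447 and 0.298 in the apex. The cKO middle thus stood beside the control base, whose libraries it overlapped, and not between base and apex as the control middle did. The mean of the highest group was 35.0 times that of the lowest, the widest span of the members. Along the control Prg4 fell at each step, with log2 changes of -1.69 ± 0.089 in the middle against the base, -1.97 ± 0.15 in the apex against the middle and -3.66 ± 0.12 in the apex against the base (edgeR, adjusted p = 3.80e-24). In the cKO it fell in the apex, with log2 changes of -4.66 ± 0.17 against the base and -4.96 ± 0.16 against the middle, and the middle against the base gave 0.30 ± 0.077. The cKO apex value rests on 8.04 to 12.1 counts a library.

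Genes of the meninges, the membranes around the brain, moved with Prg4 in part. Their sum was lower in cKO base than in control middle, while Prg4 was higher in cKO base. All 3 genes of that list were found and none was at 0 in any group. Their summed level was 63.4 to 67.7 CPM in control base, 35.5 to 36.3 in control middle and 6.37 to 8.21 in control apex, and in the cKO 28.9 to 29.6 in the base, 62.5 to 66.5 in the middle and 1.90 to 2.37 in the apex. Slc22a6, an organic anion transporter on that list, was at 15.8 ± 0.231, 9.71 ± 1.16 and 1.88 ± 0.366 CPM along the control and at 7.13 ± 0.370, 16.0 ± 0.135 and 0.358 ± 0.0205 CPM along the cKO. Slc22a6 and Slc6a12 were also among the 3 genes nearest to Prg4 in pattern. The part of these genes in the Prg4 result was not tested. Prg4 overlaps Tpr, a nuclear pore gene on the other strand, which stayed between 147.6 and 162.7 CPM by group mean, and the deposited Prg4 counts were not whole in any of the 18 libraries.

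**Figure D2:**
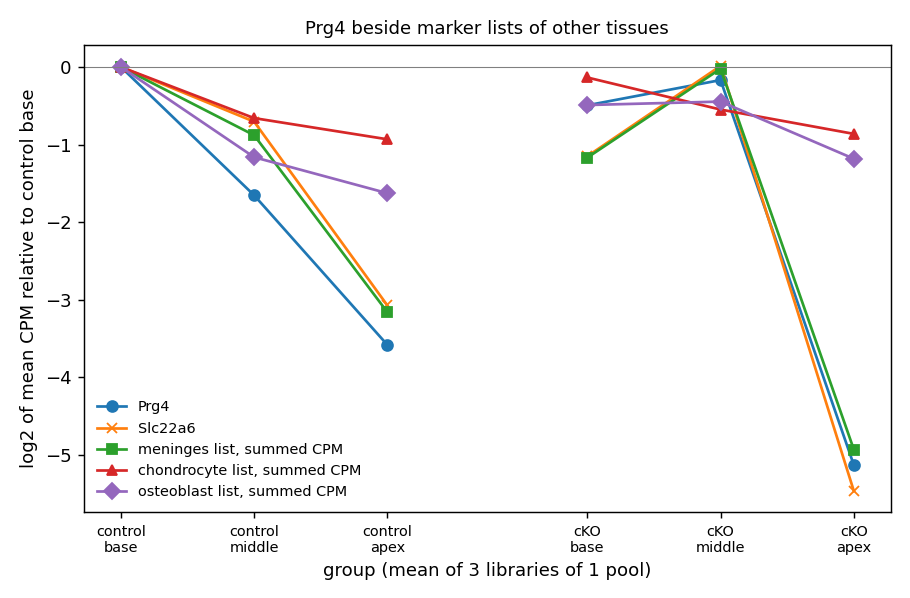
Log2 of the mean CPM relative to control base (vertical axis) in the 6 groups (horizontal axis) for Prg4, Slc22a6 and the summed CPM of the meninges, chondrocyte and osteoblast lists; each point is the mean of 3 libraries of 1 pool, with no error drawn. Prg4, Slc22a6 and the meninges list fall together in both apex groups and return to near the control base level in the cKO middle, while the chondrocyte list stays within about 1 log2 unit. The osteoblast list also falls in both apex groups and is higher in the cKO middle than in the control middle, though below control base.

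SOX9 and SOX5 act on the promoters and enhancers of the cartilage matrix genes, and their own genes varied little. Sox9 (ENSMUSG00000000567, chromosome 11, 112782224 to 112787760, plus strand) was at 126.1 to 133.4 CPM in control base, 113.7 to 115.3 in control middle and 89.97 to 94.7 in control apex. In cKO libraries Sox9 was at 132.3 to 134.7, 106.8 to 110.2 and 111.2 to 112.1 CPM. The control apex was below all other groups, and its log2 change against the control base was -0.56 ± 0.023, under the threshold. Sox5 (ENSMUSG00000041540, chromosome 6, 143828425 to 144781977, minus strand) was at 32.1 to 33.0, 29.0 to 33.5 and 29.2 to 29.7 CPM along the control and at 32.5 to 34.6, 29.2 to 31.6 and 29.4 to 31.0 along the cKO. Its largest log2 change in size between any 2 groups tested was -0.22 ± 0.043, for control apex against base. From control base to control apex, the log2 change of Acan was thus -1.95, beside -0.56 for Sox9 and -0.22 for Sox5. Sox6, which encodes the partner of SOX5, was at 15.8 to 17.9 CPM by group mean. Reads of Sox5 may include part of 5 genes on the other strand within it.

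Counted over the control regions, 5 of the 9 members tested fell in the apex against the base, where 5.48% of 17901 genes were called and 3.2% were lower: Prg4, Chad, Acan, Comp and Matn1. The median log2 change of the 9 was -1.22, against 0.0049 over all genes. In the control middle against the base 3 fell (Prg4, Chad and Acan), where 2.73% of genes were called and 1.2% were lower, and the median was -0.44. In the control apex against the middle 1 fell (Prg4), where 5.3% of genes were called and 3.22% were lower, and the median was -0.36. No member rose in any of the 3. The members were chosen with earlier results of these data known, so these counts beside the shares of all genes are descriptions. Of 9 osteoblast and bone matrix genes 8 also fell in the control apex against the base, with a median of -1.54. Their summed level was 1963 to 2020 CPM in control base, 891 to 895 in control middle and 644 to 653 in control apex, against 875 to 884 in cKO apex, none of the 9 was at 0, and their part in the members' fall was not tested. On log2(FPKM + 1), tested with limma, 3 members passed in the first of these contrasts and 0 in the last.

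The same contrasts were counted along the cKO. In the apex against the base 4 members fell (Prg4, Chad, Matn1 and Acan), where 6.6% of genes were called and 3.81% were lower, with a median of -0.97 against 0.022 over all genes. In the apex against the middle 3 fell (Prg4, Matn1 and Acan), where 4.6% of genes were called and 2.93% were lower. In the middle against the base 0 were called by edgeR, where 3.26% of genes were, although 7 of the 9 had an unadjusted p under 0.05. DESeq2 called 0 there too. The cKO apex against the middle gave 5 calls without cKO middle replicate 2, since Comp and Chad then passed the fold threshold, and 1 on log2(FPKM + 1). For the apex against the base log2(FPKM + 1) gave 3 calls, since Matn1 was lost. In the tests of a difference in these steps between genotypes, Prg4 was the 1 member called.

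**Figure D3:**
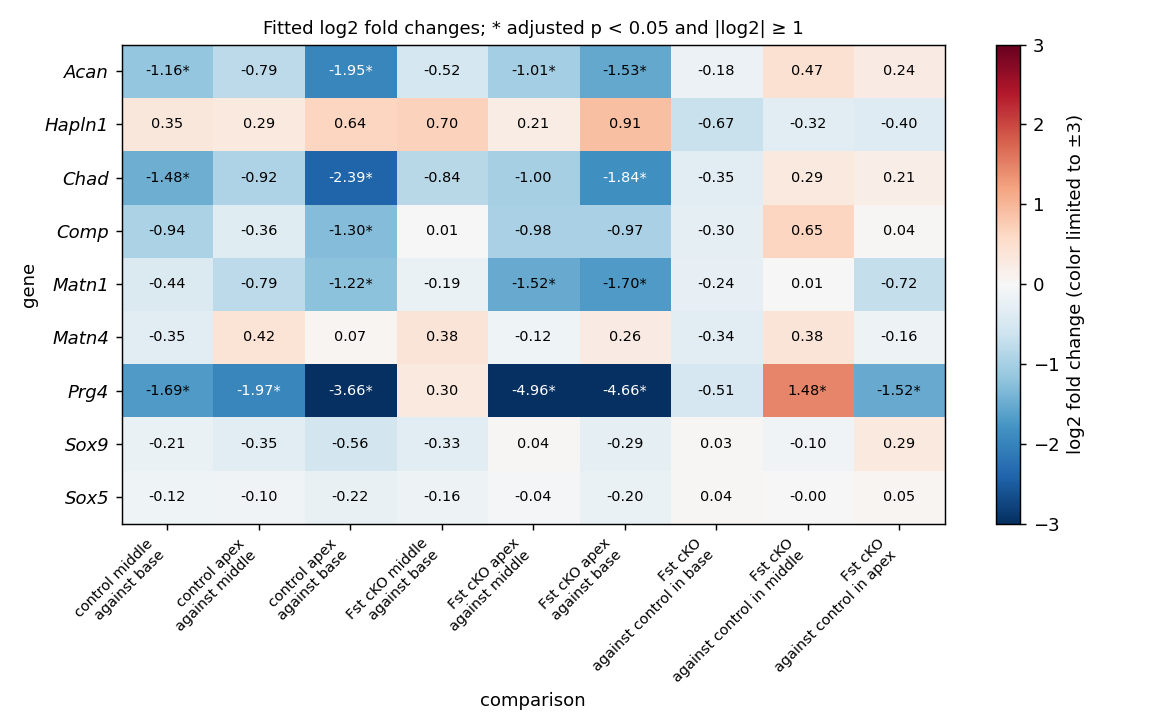
Fitted log2 fold changes of the 9 members tested (rows) in 9 comparisons (columns), printed in each cell and colored blue for lower and red for higher, with color limited to ±3; an asterisk marks an adjusted p under 0.05 with a log2 change of at least 1 in size. The calls lie in the regional contrasts of Acan, Chad, Comp, Matn1 and Prg4, and in the genotype contrasts they lie in Prg4; Chad in the cKO apex against the middle has no asterisk, since its change is -0.998 before rounding.

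The genotypes were compared region by region to see what differed in the pools of Fst cKO mice. In the base 0 of the 9 members were called by edgeR, where 3.03% of genes were, with 5 at an unadjusted p under 0.05 and 0 called by DESeq2. The largest changes there were those of Hapln1 at -0.67 ± 0.055 and Prg4 at -0.51 ± 0.078. In the middle 1 member rose, Prg4, with a log2 change of 1.48 ± 0.089 (edgeR, adjusted p = 7.53e-16), where 2.72% of genes were called and 2.15% were higher. Comp at 0.65 ± 0.21 and Acan at 0.47 ± 0.018 came next there. In the apex 1 fell, Prg4, with a log2 change of -1.52 ± 0.28 (adjusted p = 3.14e-05), where 2.04% of genes were called and 0.553% were lower. That apex change was -0.29 on log2(FPKM + 1), where it was not called. Matn1 was next at -0.72 ± 0.24, and Sox9 stood at 0.29 ± 0.024. The Hapln1 libraries of the cKO lay below those of the control in each region without overlap, with log2 changes of -0.67, -0.32 and -0.40 in base, middle and apex, all under the threshold. This separation is between technical libraries of 1 pool per group, not between animals. The median log2 change of the 9 members was -0.30 in the base, 0.29 in the middle and 0.04 in the apex, against -0.016, -0.00058 and 0.0047 over all genes.

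The genotype effects were then compared between regions. That of Prg4 was higher in the middle than in the base, with a log2 difference of 1.99 ± 0.12, and lower in the apex than in the middle, with -2.997 ± 0.29 (4.7% and 3.6% of genes were called in these 2 interaction contrasts, 2.16% higher in the first and 1.93% lower in the second). Between apex and base it differed by -1.01 ± 0.30 (adjusted p = 0.00996), where 2.41% of genes were called and 1.56% were lower. This last call rests on single libraries: the difference was -0.84 without cKO apex replicate 3, and the call was also lost without control base replicate 3, control apex replicate 2, control apex replicate 3 or cKO base replicate 3. On log2(FPKM + 1) it was 0.015. The other 8 members were not called in these contrasts, and the nearest was Comp in the middle against the base at 0.95 ± 0.29, which passed 1 without any 1 of 4 libraries (1.02 to 1.13). For Acan and Chad the genotype effect in the middle exceeded that in the base by 0.64 ± 0.022 and 0.63 ± 0.038, and the summed level of the osteoblast list moved alike, from 1963 to 2020 CPM in control base and 891 to 895 in control middle to 1422 to 1424 in cKO base and 1453 to 1482 in cKO middle. The part of that list in the Acan and Chad values was not tested.

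By the adjusted p alone, without the fold threshold, most members passed in most contrasts, as did a large share of all genes. In the control 8 of 9 passed in the apex against the base (52.5% of all genes), 9 in the middle against the base (31.5%) and 7 in the apex against the middle (45.5%). Along the cKO the counts were 9 (55.3%), 7 (46.4%) and 6 (50.9%) in the same order. Between genotypes 5 passed in the base (36.1%), 7 in the middle (35.7%) and 6 in the apex (40.6%). For the differences of genotype effects 5 passed between apex and base (24.8%), 7 between middle and base (33.4%) and 5 between apex and middle (38%).

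When the 3 libraries of each pool were summed and the genotype effect was tested over the 3 regions, 0 of the 9 members and 0% of 19446 genes were called by edgeR, with 1 member at an unadjusted p under 0.05 and 0 called by DESeq2. That member was Hapln1, at -0.46 ± 0.080 with an adjusted p of 0.238. Prg4 was at -0.02 ± 0.57 in this fit. The fit has 2 residual degrees of freedom, and it is not known whether the regions of a genotype share animals.

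The other genes of cartilage matrix followed Acan only in part. Of 17 such genes 5 fell and 1 rose in the control apex against the base, with a median of -0.77, where 5.48% of all genes were called and 3.2% were lower. In the cKO 3 fell and 1 rose, where 6.6% of all genes were called and 3.81% were lower. Col2a1, the main collagen of cartilage, fell in the control with a log2 change of -1.999 ± 0.018, from 757.5 to 198.8 CPM, and in the cKO with -1.43 ± 0.021, from 646.9 to 246.7 CPM. Col11a1, whose product nucleates the same fibrils, fell too, with log2 changes of -1.65 ± 0.021 and -1.40 ± 0.021. Epyc, a small leucine-rich proteoglycan, rose, with log2 changes of 1.88 ± 0.0069 in the control and 1.91 ± 0.0073 in the cKO. Snorc, a transmembrane proteoglycan of chondrocytes, was at 96 summed counts in control base and 6 in control apex. Between genotypes this list had 1 gene higher (Hapln3, 1.16 ± 0.38) and 1 lower (Snorc, -1.12 ± 0.31) in the base. In that contrast 3.03% of all genes were called. Hapln3 held 20 summed counts in control base and 41 in cKO base. DESeq2 called 1 of the 17 in the base and limma on log2(FPKM + 1) 0. There were 0 of 17 called in the middle and in the apex by edgeR or DESeq2. There edgeR called 2.72% and 2.04% of all genes, and 13 of the 17 had an unadjusted p under 0.05 in each.

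Genes of the growth plate, where cartilage turns into bone, summed to 47.0 to 47.9 CPM over 7 genes in control base and 23.9 to 25.6 CPM in control apex. Col10a1, the marker of hypertrophic chondrocytes, held 25 summed counts in control base and 0 in control apex and did not pass the filter. Of the 6 growth plate genes tested, 2 fell in the control apex against the base, where 5.48% of all genes were called (Mmp13, a collagenase, with a log2 change of -2.81 ± 0.17, and Panx3, a channel protein, with -1.47 ± 0.15). Mmp13 rose in the cKO middle against the control middle, with a log2 change of 1.07 ± 0.15. None of 6 regulators of cartilage formation, Sox6 among them, was called by edgeR or DESeq2 in any contrast, while 1 to 5 of them had an unadjusted p under 0.05 in the edgeR fits on libraries. In those fits edgeR called 2.04% to 6.6% of all genes, and 0% on summed pools. A count of 0 among 6 genes is near these shares.

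Of 13 genes that make or cut aggrecan, 1 fell in the control apex against the base, a share near the 5.48% of all genes called there. It was Adamts15, which encodes a protease of the lectican-cleaving family, with a log2 change of -1.51 ± 0.11. In the cKO 2 of the 13 fell in the apex against the base, Adamts4 and Adamts15, the latter with a log2 change of -1.19 ± 0.12. In that contrast 6.6% of all genes were called and 3.81% were lower. Adamts4, which encodes an aggrecanase, had a peak in the control middle at 4.66 ± 0.460 CPM against 1.79 ± 0.218 in the base and 1.44 ± 0.217 in the apex. It fell in the cKO middle against the control middle, with a log2 change of -1.81 ± 0.16, the 1 call of this list between genotypes. The summed level of the oligodendrocyte and astrocyte list was also highest in control middle, at 282.7 to 290.4 CPM against 116.7 to 119.6 in cKO middle, and its part in the Adamts4 value was not tested.

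Joint genes other than Prg4 were few. Gdf5, a signal that marks forming joints, held 34.9, 19.0 and 5 summed counts along the control and 17, 54.0 and 8 along the cKO. Its log2 change between genotypes in the middle was 1.26 ± 0.40 (edgeR, adjusted p = 0.0120). DESeq2 called 1 of the 4 joint genes tested there. Gdf5 was 1 of the 2 that edgeR called, where 2.72% of all genes were called and 2.15% were higher. The other was Col22a1, a collagen of tissue junctions, which rose in the cKO middle and the cKO apex, with log2 changes of 1.44 ± 0.092 and 1.35 ± 0.13, from 4.97 to 13.6 and from 2.47 to 6.23 CPM. Among the lecticans and link proteins of brain, Bcan, the gene of brevican, was at 155.1, 114.0 and 97.0 CPM along the control and 122.8, 117.5 and 95.9 along the cKO, without a call. The 7 genes of that list summed to 352.6 to 359.2 CPM in control base against 270.8 to 279.6 in cKO base. The sums were 328.4 to 333.0 against 304.9 to 311.6 in the middle and 341.6 to 351.3 against 302.9 to 313.5 in the apex. The sum was lower in the cKO in each region, but not all of its genes were. Ptprz1, on the same list, was at 25.1 CPM in control base against 36.2 in cKO base. In the middle it was at 17.1 against 24.0 CPM. Hapln4, a link protein of perineuronal nets, was singled out after its values were seen. It was at 151.8, 171.1 and 203.2 CPM along the control and 91.1, 145.0 and 168.7 along the cKO. That is the regional direction of Hapln1, while Bcan was highest in the base in both genotypes. The part of these genes in the Hapln1 values was not tested. Hapln2, the link protein of nodes of Ranvier, fell in the cKO middle against the control middle, with a log2 change of -2.34 ± 0.14, beside the oligodendrocyte and astrocyte levels given above.

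The genes nearest to each member in pattern were sought by the root mean square difference of centred log2 means over the 6 groups, over the 15176 genes whose mean reached 1 CPM. Nearest to Acan were Col2a1 (0.087), Col11a1 (0.10) and Htr2a (0.13). Nearest to Chad were Dpep1 (0.098), Thbs4 (0.18) and Acan itself (0.18). Prg4 had no near neighbour: Slc6a12 came first at 0.39, then Slc22a6 at 0.53 and Slc6a20a at 0.54. For Hapln1 they were Gjd2 (0.039), Mtmr7 (0.052) and RP24-293C5.5 (0.053), with 41 genes within 0.1. Comp had Cacng4, Gli1 and Col3a1 (0.099 to 0.11), and Matn1 had Greb1, Crispld2 and Adcyap1r1 (0.11 to 0.20). Flat profiles have many neighbours: 3741 genes lay within 0.1 of Sox5 and 381 of Sox9, against 1 each for Acan, Chad and Comp and 70 for Matn4. The nearest 3 were Setd1a, Zfyve1 and Calu (all 0.015) for Sox5, Ninj1, Rapgef3 and Dock6 (0.027 to 0.037) for Sox9, and Gm527, Entpd3 and Ddit4l (0.038 to 0.064) for Matn4. The 6 points of each profile are pools that share libraries across all genes, so these distances are descriptions.

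**Figure D4:**
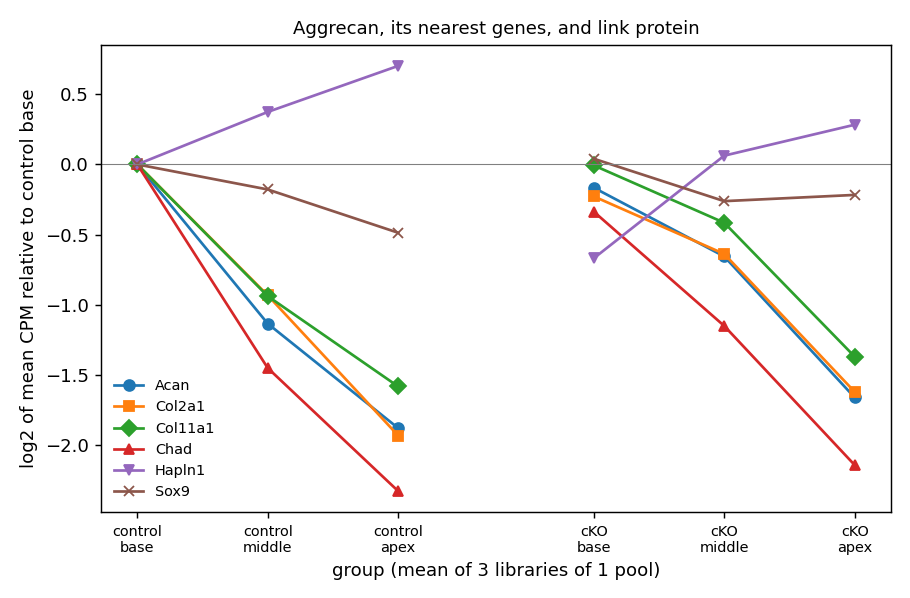
Log2 of the mean CPM relative to control base (vertical axis) in the 6 groups (horizontal axis) for Acan, its nearest genes Col2a1 and Col11a1, and Chad, Hapln1 and Sox9; each point is the mean of 3 libraries of 1 pool, with no error drawn. Acan, Col2a1, Col11a1 and Chad descend toward the apex in both genotypes, Hapln1 ascends, and Sox9 stays within about 0.5 of control base.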

How the data were processed

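Bulk RNA of 18 libraries, 3 technical libraries of 1 pool for each of 6 groups, was prepared with TruSeq v2 and Ribo-Zero, per the labels' protocols. The submitters' processing notes name STAR 2.5.2b, Cuffdiff 2.2.1 and GRCm38/mm10, without roles. The table deposited by the authors holds counts for every gene in every library, from a step not given in the sources used here, and FPKM computed by the authors per library. Over all genes of the table, those without reads included, 89.2% to 89.9% of a library's values are whole within 1e-06. Since the rest are not, the deposited values were taken here for expected counts. No row lacked a gene name. CPM was computed here from the counts and the total of each library.

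Counts were rounded and fitted with edgeR 4.0.16 in R 4.3.3 (TMM factors 0.977 to 1.03, filterByExpr leaving 17901 genes and 9 of the 10 members, 1 design of 6 groups, 12 residual degrees of freedom, two-sided quasi-likelihood F tests, Benjamini-Hochberg adjustment over all genes kept). Calls needed a log2 change of at least 1 in size besides an adjusted p under 0.05. The common biological coefficient of variation was 0.00988 among libraries and 0.116 among the 6 summed pools, which were fitted with region and genotype. Libraries of a pool differed by a chi-square of 1.19 to 1.60 per degree of freedom and were kept apart. Counting intervals and floors cover counting error only, since reads carry no molecular identifiers.

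Alternatives were DESeq2 1.42.0, library totals in place of TMM, no filter, a replicate block, limma 3.58.1 on log2(FPKM + 1), fits of the compared groups alone, adjusted p alone, and each library left out. The edgeR fit on libraries was tried on simulated counts for cKO apex against control apex only. The other contrasts, the summed pools and the alternatives were not tried in this way. Members and lists were chosen with earlier results of these data known. All members are named. Of the 18 other lists, at most 4 called genes per list and comparison were named, by size of change, with Col2a1, Sox6, Gdf5 and Bcan always allowed. Outside this rule Hapln4 and Ptprz1 were named after their values were seen, and Col10a1 was named although it was filtered out. Cnmd, Col1a1, Col1a2, Ibsp and Alpl were also named after their values were seen, to show what the list sums hold. The 3 genes nearest in pattern were named for each member, with 0.01 CPM added before the log2. Gene overlaps came from GENCODE release M21, promoter sequences from RefSeq on GRCm38.p6. No protein sequences were used here.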

Additional observations from a re-analysis of the deposited data

Results flagged for a closer look

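Prg4 is the one member whose genotype effect passed the test of a difference between regions. Its effect in the middle exceeded that in the base by a log2 change of 1.99, that in the apex was lower than that in the middle by -2.997, and that in the apex was lower than that in the base by -1.01. The last call was lost in 5 of the 12 fits that left out 1 library, without control base replicate 3, control apex replicate 2 or 3, cKO base replicate 3 or cKO apex replicate 3, and its value was 0.015 on log2(FPKM + 1). In the middle the 3 cKO libraries were all above the 3 control libraries, and in the apex and in the base all below them, each set being technical libraries of 1 pool. The summed CPM of the 3 meninges genes had the same order of groups within each region, from 35.5 to 36.3 in control middle against 62.5 to 66.5 in cKO middle and from 6.37 to 8.21 in control apex against 1.90 to 2.37 in cKO apex. Its part in the Prg4 result was not tested.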

How the results depend on the processing

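Matn3 held 0 to 3 counts a group, and Comp held 20 to 76 counts a library. With the adjusted p alone and no fold threshold, the members called came to 5 in base, 7 in middle and 6 in apex for cKO against control, where 36.1%, 35.7% and 40.6% of all genes passed. In the control they came to 8 for apex against base, 9 for middle against base and 7 for apex against middle. In the cKO they came to 9, 7 and 6. For the interactions they came to 5 for apex against base, 7 for middle against base and 5 for apex against middle. On log2(FPKM + 1) with limma, which shrinks changes of low genes, the count was 0 for cKO against control in the apex, 3 for control apex against base, 0 for control apex against middle, 1 for cKO apex against middle and 0 for the apex against base interaction, whose Prg4 value turned to 0.015.

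With 1 library left out in turn, the count ran from 3 to 5 for cKO apex against middle, from 0 to 1 for the apex against base interaction and from 1 to 2 for the middle against base interaction. The other counts stayed within 1.5 times. DESeq2, library totals, no filter and fits of the compared groups alone left every count within 1.5 times.

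The signs that turned, apart from Prg4 above, were those of values near 0. Sox5 in cKO against control in the middle was 0.0089 with library totals and 0.0024 without the filter, and ran from -0.041 to 0.066 with 1 library left out. Sox5 in the apex was -0.15 with limma. The Sox5 apex against base interaction was -0.018 with library totals, -0.23 with limma and -0.00034 with only the groups compared, and ran from -0.012 to 0.033 with 1 library left out. Its apex against middle interaction was -0.066 with limma and ran from -0.013 to 0.093, and its middle against base interaction ran from -0.080 to 0.026. Matn1 in cKO against control in the middle ran from -0.11 to 0.14, Comp in the apex from -0.11 to 0.16 and Comp in cKO middle against base from -0.15 to 0.15. Their cause was not tested.

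The replicate block changed no call: all 12 counts and 108 log2 changes kept their side. The labels give no shared origin for a replicate number. Deviations of same-numbered libraries correlated at -0.14 to 0.28 over 45 pairs, with a mean of 0.020 against -0.0098 for other numbers, and 13 of 18 libraries correlated best with their own number, which is a hint from the data and not from the design.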
